A study of Mus musculus with 2 samples.

Results

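DNase-seq of MN1, an immortalized mouse cell line, gave 2544 strong distal peaks in replicate 1 that had no counterpart in replicate 2. They were chosen by 3 measured values. The authors' peak score had to be at or above the median of the replicate 1 list, which was 49. The peak had to overlap no peak and no hotspot of replicate 2, a hotspot being a wider region of raised cleavage that can hold several peaks. Its centre had to lie more than 1 kb from every transcription start site (TSS) of a protein-coding gene on chromosomes 1 to 19. Score, overlap and TSS distance are therefore given only as a description. Of the 56636 strong distal peaks of replicate 1, the 2544 members made up 4.49% (the whole list held 170600 distinct peaks). The mirror set, strong distal peaks of replicate 2 without a counterpart in replicate 1, had 1987 peaks, 3.72% of 53474. Strong there meant a score of at least 39, the median of the replicate 2 list. The mirror set was not weighted to the members' score or GC content in any comparison. The main comparison set was the 52354 strong distal peaks of replicate 1 that overlapped a peak of replicate 2, called shared peaks here.

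The series has 1 group with 2 biological replicates of MN1, strain B6NCrl, and 1 library each. Both carry the same labels apart from sequencing instruments, which are named for replicate 2 only. The labels give neither tissue, treatment nor sex, and age is unknown, so the peaks can be described by library but not by a condition. With 2 libraries and 1 group no test over samples was possible, and what differs between the cultures, preparations or read depths of the libraries cannot be told apart. The depth is unknown. Intervals below are exact binomial 95% intervals over peaks and cover counting error only.

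DNase I cuts DNA where nucleosomes have been displaced, and most such sites away from promoters are enhancers, insulators or other elements held open by sequence-specific factors. The short words under a site therefore point to the factor families that could bind it. The word TTGCATCA joins a C/EBP recognition sequence to an ATF sequence. It is known as the C/EBP-ATF composite element or amino acid response element. ATF4, the effector of the integrated stress response, binds it together with C/EBP family proteins at genes of amino acid supply, and Ddit3 (CHOP) and Trib3 are classical targets.

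Words of 8 bases that stood in at least 25 members were ranked against shared peaks weighted to the members' score and GC content. This C/EBP-ATF element had the highest ratio. A wider form, TGATGNAA read on either strand, includes it, since TGATGCAA is the reverse complement of TTGCATCA. The wider form stood in 5 of the 10 highest-scoring members (at most 1 per nearest gene). Its share was 16.8% in members that scored 70 or more, 10.3% in all members and 3.26% in all replicate 1 peaks. The count in 10 peaks is a description, as the wider form was added after values were seen. These 5 are shown first, on the forward strand of mm10 (GRCm38) and 5′ to 3′, with the wider form in capitals. They lay 51972 bp from the start of Ppara, a lipid-sensing nuclear receptor, 6464 bp from that of Sema4d, a semaphorin, and in introns of Zhx1, a zinc finger and homeobox factor, and of Tmcc3. The fifth lay between genes, 14238 bp from 4933412E24Rik.
Ppara member, chr15:85682936-85683085: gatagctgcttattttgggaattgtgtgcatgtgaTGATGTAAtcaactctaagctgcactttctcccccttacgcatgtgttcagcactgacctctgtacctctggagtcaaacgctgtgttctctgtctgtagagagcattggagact
Sema4d member, chr13:51800136-51800285: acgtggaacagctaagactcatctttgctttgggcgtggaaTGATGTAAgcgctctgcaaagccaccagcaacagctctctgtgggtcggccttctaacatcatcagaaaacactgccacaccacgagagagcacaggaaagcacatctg
Zhx1 member, chr15:58050016-58050165: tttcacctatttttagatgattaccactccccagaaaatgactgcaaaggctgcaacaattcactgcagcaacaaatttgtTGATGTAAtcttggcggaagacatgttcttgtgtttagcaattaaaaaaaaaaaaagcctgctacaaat
Tmcc3 member, chr10:94533236-94533385: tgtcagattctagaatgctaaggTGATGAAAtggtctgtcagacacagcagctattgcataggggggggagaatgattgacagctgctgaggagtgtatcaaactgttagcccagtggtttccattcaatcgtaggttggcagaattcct
4933412E24Rik member, chr15:60030776-60030925: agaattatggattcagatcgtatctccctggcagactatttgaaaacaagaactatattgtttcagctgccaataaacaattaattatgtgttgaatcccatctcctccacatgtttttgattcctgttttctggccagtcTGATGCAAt

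The highest-scoring members with the exact element TTGCATCA are shown next, with the element in capitals. They show where it sat within the peak, on either strand. The 4933412E24Rik member above was the highest of them, with a score of 86. The others scored 74 to 78. Rb1cc1 encodes an autophagy protein and Pde4d a phosphodiesterase that degrades cyclic AMP. These names give only the nearest gene or the gene around the peak. The Rb1cc1 and Ldlrad3 members lay between genes, 129906 bp and 7306 bp from the starts of those genes. The Agap1 and Pde4d members lay in introns, 170725 bp and 451325 bp from the nearest gene start. The Tmcc3 member below lay in the same hotspot of 571 bp as the Tmcc3 member above.
Rb1cc1 member, chr1:6076216-6076365: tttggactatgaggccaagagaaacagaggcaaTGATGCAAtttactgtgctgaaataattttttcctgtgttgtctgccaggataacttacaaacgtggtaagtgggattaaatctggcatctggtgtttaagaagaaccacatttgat
Ldlrad3 member, chr2:102193616-102193765: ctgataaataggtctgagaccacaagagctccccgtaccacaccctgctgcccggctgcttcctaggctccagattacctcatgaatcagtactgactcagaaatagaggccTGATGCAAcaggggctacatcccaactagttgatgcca
Agap1 member, chr1:89625456-89625605: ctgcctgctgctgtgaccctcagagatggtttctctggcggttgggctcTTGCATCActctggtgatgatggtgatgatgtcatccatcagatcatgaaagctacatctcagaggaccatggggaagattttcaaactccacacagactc
Second Tmcc3 member, chr10:94533396-94533545: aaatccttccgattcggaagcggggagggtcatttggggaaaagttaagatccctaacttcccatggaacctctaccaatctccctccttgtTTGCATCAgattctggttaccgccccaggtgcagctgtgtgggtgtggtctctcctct
Pde4d member, chr13:109829596-109829745: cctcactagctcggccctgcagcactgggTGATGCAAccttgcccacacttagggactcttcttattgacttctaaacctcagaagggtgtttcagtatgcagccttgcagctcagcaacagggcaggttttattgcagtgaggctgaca

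For contrast, the highest-scoring members with an AP-1 word (TGANTCA), a CTCF word or a GATA word (AGATAA) are shown with that word in capitals. AP-1 is the Fos and Jun family, CTCF the insulator protein, and GATA factors are zinc finger regulators. They lay in introns of Zbtb7a, a transcription factor gene, of Zfhx3, a large homeobox factor gene, and of Ddc, the gene of dopa decarboxylase.
Zbtb7a member with an AP-1 word, chr10:81145776-81145925: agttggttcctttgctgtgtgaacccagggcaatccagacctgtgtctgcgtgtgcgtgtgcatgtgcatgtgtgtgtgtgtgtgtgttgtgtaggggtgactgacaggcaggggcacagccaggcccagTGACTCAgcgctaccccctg
Zfhx3 member with a CTCF word, chr8:107956016-107956165: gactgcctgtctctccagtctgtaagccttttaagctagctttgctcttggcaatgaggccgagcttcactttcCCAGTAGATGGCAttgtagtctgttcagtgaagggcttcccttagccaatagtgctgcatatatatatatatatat
Ddc member with a GATA word, chr11:11840716-11840865: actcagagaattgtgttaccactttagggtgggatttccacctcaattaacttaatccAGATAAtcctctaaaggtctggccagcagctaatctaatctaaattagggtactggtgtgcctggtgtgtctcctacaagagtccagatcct

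The exact element TTGCATCA stood in 107 of the 2544 members, 4.21% (3.46% to 5.06%). It stood in 580 of the shared peaks, 1.11%, so the share in members was 3.80 times higher. Only 3 of the 1987 peaks of the mirror set held it, 0.151%. The mirror set was richer in GC, with 1420 peaks in the highest quintile of the members' GC content. Within that quintile 2.77% of members and 0.211% of the mirror set held the element. Among all strong distal peaks of replicate 1 the share was 1.25%, and among replicate 1 peaks of any score and place on chromosomes 1 to 19 it was 1.06%. Windows of the same width 1 kb to each side of the members held it in 0.393% of cases, 10.7 times less often. The share was higher in members than in shared peaks on 19 of 19 autosomes, and higher than in the mirror set on 19 of 19. The latter count adds little, because only 3 peaks of the mirror set held the element and most autosomes had none. When shared peaks were weighted to the members' score and GC content, their share was 1.04% and the ratio 4.06. A match is a description of the letters and not a measured binding event. The element was chosen after the members' sequences were seen, so its share has no test.

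The element was taken from a ranking of words of the same length. Of 3360 sequences of 8 bases that stood in at least 25 members, TTGCATCA ranked 1 by its ratio to the weighted shared peaks and 1 by its ratio to the flanks. Among the 25 words of highest ratio to shared peaks, 15 held GATG on either strand, whereas 6.28% of all 3360 words did. Several of them, such as GATGCAAC and CTGATGCA, are the top word shifted by 1 base and can count the same matches again. GATG is itself part of the top word, so this share is a description and adds no separate support. The next family member, TGATGTAA, stood in 75 members (2.95%) and in 1 peak of the mirror set. TGATGAAA stood in 65 members (2.56%) and in 3 peaks of the mirror set.

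The wider form TGATGNAA stood in 263 members, 10.3% (9.18% to 11.6%), against 3.42% of shared peaks, 0.755% of the mirror set and 3.26% of all replicate 1 peaks. The ratio to shared peaks was 3.02, and 2.74 after weighting to score and GC. A related word, TGATGTCA, differs from the cyclic AMP response element TGACGTCA in a single base. It stood in 95 members, 3.73%, against 2.01% of shared peaks and 0.654% of the mirror set, and its share over all replicate 1 peaks was 1.70%. TGACGTCA itself stood in 13 members, 0.511%, against 0.562% of shared peaks and 0.603% of all replicate 1 peaks, a ratio of 0.910 that turned to 1.46 after weighting. The C/EBP word TTGCNNAA stood in 6.45% of members, 6.03% of shared peaks and 5.98% of all replicate 1 peaks, and its ratio of 1.07 turned to 0.906 after weighting. Together TGATGNAA and TGATGTCA covered 350 members, 13.8%.

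The exact element lay close to the summit. In 60 of the 107 members it was within 25 bp of the peak centre. Its density was 9.34 matches per 1000 members in each 25 bp bin within 50 bp of the centre and 0.737 beyond 300 bp. Shared peaks had 2.20 near the centre and 0.697 far from it. In the mirror set the density near the centre, 0.377, was below that beyond 300 bp, 0.629.

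**Figure D1:**
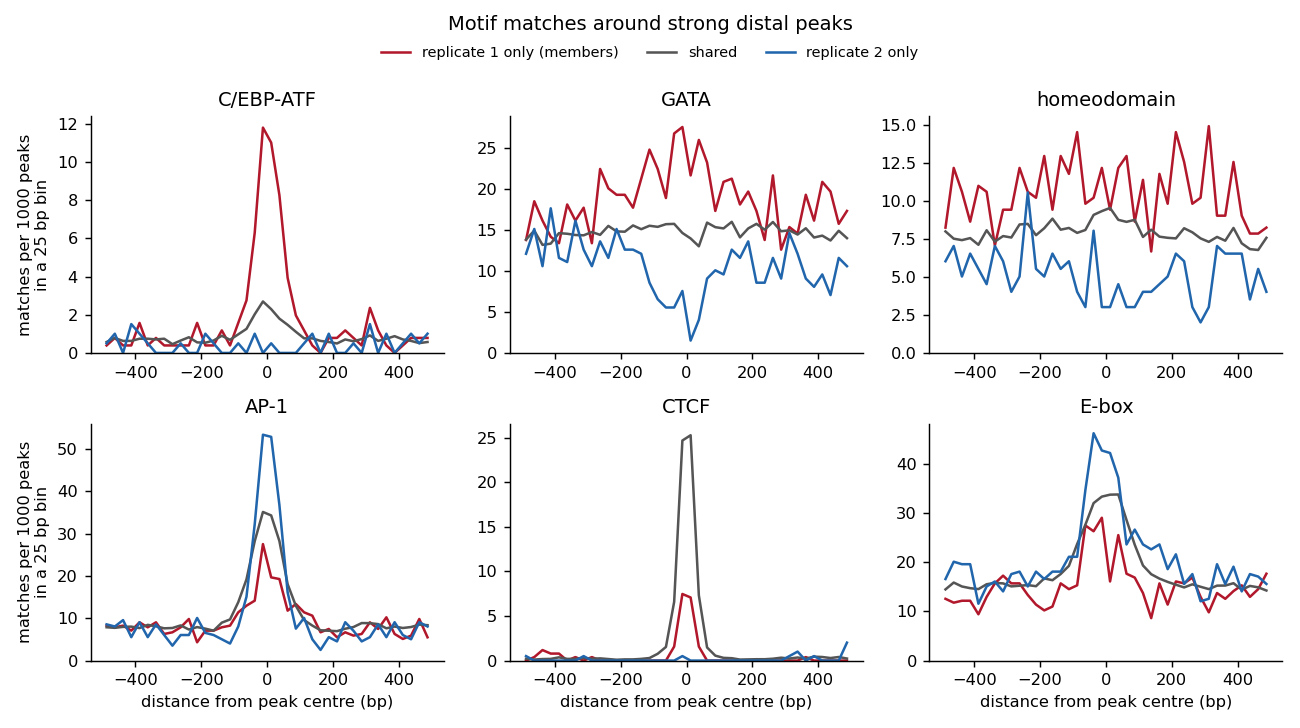
Matches to 6 motifs per 1000 peaks in bins of 25 bp (y axis, a separate scale in each panel) against the distance from the peak centre in bp, for members (red), shared peaks (grey) and strong distal peaks of replicate 2 only (blue). The C/EBP-ATF panel has its highest line in the members, at the centre, while in the AP-1 and E-box panels the replicate 2 only line is the highest at the centre and in the CTCF panel the shared line.

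The share with the element was higher in each higher band of score. Distal peaks of replicate 1 only that scored 1 to 19 held it in 0.697% of cases (58 of 8322), those of 20 to 34 in 1.56% and those of 35 to 48 in 2.34%. Members that scored 49 to 54 held it in 3.40% (45 of 1325), those of 55 to 64 in 4.6% (41 of 891) and those of 65 or more in 6.4% (21 of 328, 4.01% to 9.62%). The 47 members of 78 or more were fewer still and did not continue this, with 4.26% (2 peaks). Distal replicate 1 peaks of the same bands that overlapped a replicate 2 peak, here also those below 49, stayed between 0.422% and 1.20%. The step across the threshold was not smooth, as 6 of the 285 members at a score of 49 held the element (2.11%) and 12 of the 326 otherwise eligible peaks at 48 (3.68%). Of the 184 members that scored 70 or more, 31 held the wider form, 16.8%, against 3.57% of shared peaks of such scores.

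**Figure D2:**
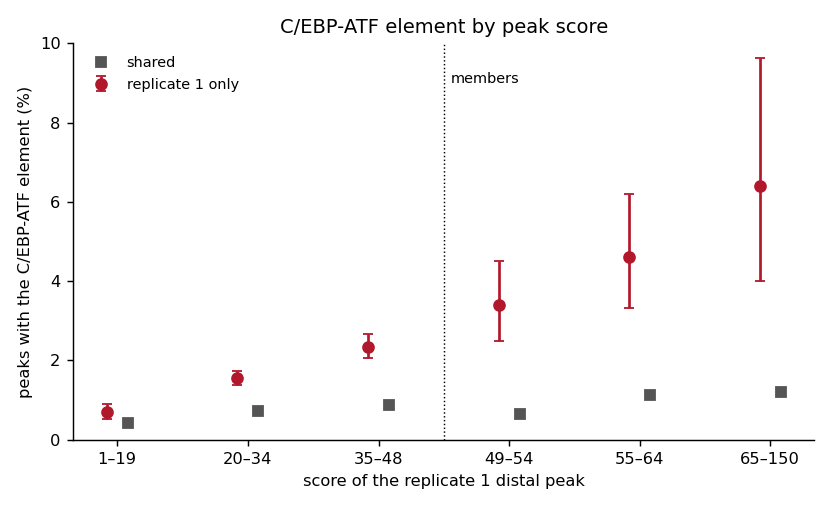
Share of distal replicate 1 peaks with the C/EBP-ATF element in percent (y axis) by band of the authors' score (x axis), for peaks of replicate 1 only (red circles, bars are exact binomial 95% intervals) and shared peaks, here of any score (grey squares). The red points go from 0.697% to 6.4%, and the dotted line marks the score of 49 from which peaks count as members.

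Members with the element were spread over the genome. They lay between genes in 52 cases, in introns in 48 and in exons in 7, at a median of 19970 bp from the nearest protein-coding TSS (13064.5 bp over all members), and on 19 of 19 autosomes. None lay in a dense block of replicate 1 peaks. Of these 107, 59.8% lay in hotspots at the ceiling of the q scale, against 43.9% of the other members, and 4 held more than 1 copy. Over all distal peaks of any score, 714 of the 1562 replicate 1 peaks with the element (45.7%) were found in replicate 1 only. The same share over all 127276 distal peaks of replicate 1 was 32.2%. The 714 include the 107 members, and the element was chosen from the members' sequences, so this contrast is a description. In replicate 2, 125 of 932 peaks with the element (13.4%) were found in replicate 2 only, against 26.6% of all its distal peaks.

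CTCF and AP-1 words were less frequent in the members than in shared peaks. CTCF words stood in 45 members, 1.77%, against 6.59% of shared peaks and 3.10% of all replicate 1 peaks. The share was lower than in shared peaks on 19 of 19 autosomes, and the ratio was 0.268, or 0.295 after weighting to score and GC. The mirror set held 1 CTCF word in 1987 peaks (0.0503%). AP-1 words stood in 239 members, 9.39%, against 14.5% of shared peaks and 10.9% of all replicate 1 peaks, lower on 17 of 19 autosomes. The mirror set had more AP-1 words than either, 18.9%, and the members were below it on 18 of 19 autosomes. The ETS word CCGGAAG, common at active promoters and enhancers, stood in 0.629% of members, 1.64% of shared peaks and 2.26% of all replicate 1 peaks. The SP/KLF word GGGCGGG, bound by zinc finger factors at CpG-rich sites, stood in 1.65%, 4.02% and 6.39%, and its ratio to shared peaks went from 0.411 to 0.911 after weighting to score and GC. The ETS ratio went from 0.382 to 0.616 with the same weights.

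Several further differences shrank or turned once GC content was matched. GATA words stood in 319 members, 12.5%, against 8.14% of shared peaks, 3.07% of the mirror set and 8.06% of all replicate 1 peaks. The ratio to shared peaks was 1.54 but 1.15 after weighting to score and GC, and between 0.927 and 1.4 within quintiles of the members' GC content. Without GC weights, the place of GATA words within the peak differed as well. Whether this holds after GC matching was not tested. Members had 25.5 matches per 1000 peaks in each 25 bp bin within 50 bp of the centre and 16.7 beyond 300 bp. Shared peaks, unweighted, had 14.3 in both. The homeodomain word TAATTA (4.49% of all replicate 1 peaks) stood in 5.97% of members and 4.92% of shared peaks, a ratio of 1.21 that turned to 0.824 with the same weights. The E-box CAGCTG, a site of basic helix-loop-helix factors (13% of all replicate 1 peaks), stood in 12.6% of members, 16.6% of shared peaks and 19.3% of the mirror set. Its ratio to shared peaks was 0.759, and 0.930 after weighting. The element TTGCATCA, by contrast, kept a ratio between 2.80 and 4.17 in all 5 GC quintiles. At least 1 of the 6 main motifs (TAATTA, AP-1, CAGCTG, the C/EBP-ATF element, CTCF and the GATA word) stood in 39.4% of members and 43.6% of shared peaks, so 60.6% of members held none of them.

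**Figure D3:**
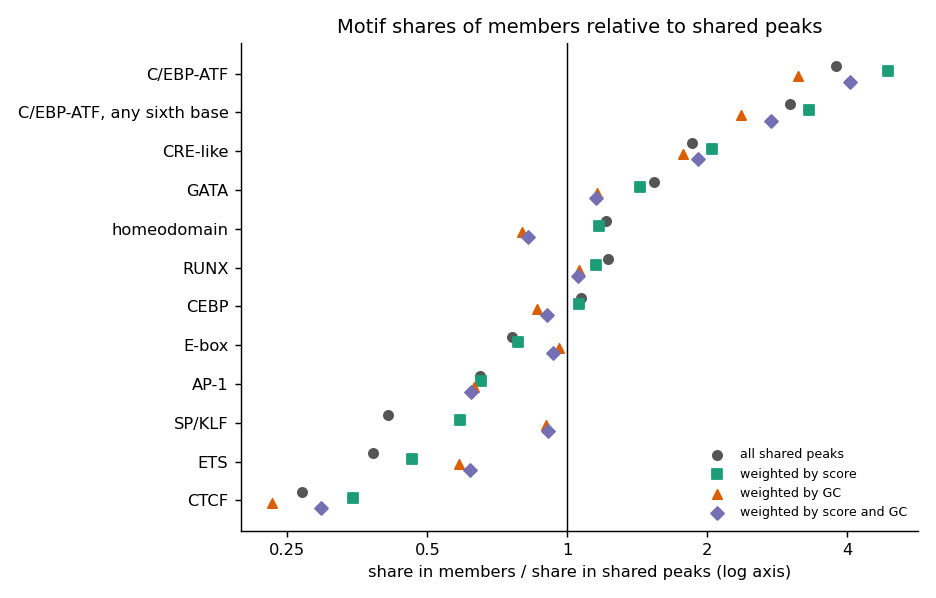
Share of members with a motif divided by the share of shared peaks (x axis, log scale) for 12 motifs (y axis), with shared peaks as they are (grey circles) and weighted to the members' score (green squares), GC content (orange triangles) or both (purple diamonds). The C/EBP-ATF element stays between 3.14 and 4.89, CTCF between 0.231 and 0.347, and the homeodomain word moves from 1.21 to 0.798 with GC weights.

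The members were richer in A and T and in repeats than shared peaks. Their median GC content was 47.3% (quartiles 42.7% and 51.3%), against 52.0% in shared peaks and 56.0% in the mirror set. They had a mean of 1.74 CpG dinucleotides, against 2.94 in shared peaks and 2.98 in the mirror set. Soft-masked repeats covered a mean of 15.2% of a member, 8.75% of a shared peak and 8.11% of a peak of the mirror set, and 8.37% of members were more than 50% masked. All 31-base words were unique in the genome in 87.3% of members, 93.9% of shared peaks and 95.2% of the mirror set, and 17 members had fewer than 50% unique words. The member with the fewest, 14.2%, lay at chr9:124256676-124256825 with a score of 71. A member that held both an AP-1 word and the C/EBP-ATF element, with a score of 70 and all of its words unique, lay in an intron of Gm37988 at chr1:4849556-4849705, 8183 bp from the start of Tcea1, a transcription elongation factor gene.

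The members lay in smaller and weaker hotspots of replicate 1 than shared peaks. This comes from the same library as the rule and is a description only. Members scored between 49 and 116, with a median of 54 (quartiles 51 and 60), where shared peaks had a median of 74. Hotspots with a member were 282.5 bp wide in the median, against 484 bp for shared peaks and 247 bp for the mirror set. The −log10 q of the hotspot was at its ceiling of 100 for 44.6% of members, 86.7% of shared peaks and 30.5% of the mirror set, and 77.4% of members were alone in their hotspot. Replicate 2 had a peak with its centre within 500 bp of 598 members, 23.5%, and the median distance to its nearest peak was 1480 bp. Members in hotspots at the ceiling held the element in 5.64% of cases and those below it in 3.05%. The highest-scoring member, with 116, lay in an intron of Igsf21, which encodes a synaptic adhesion protein (chr4:140172056-140172205). It held none of the 6 main motifs. The next, with 95, lay in an intron of Hhat, the acyltransferase of Hedgehog proteins, and also held none.

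By position, members resembled shared peaks more than the mirror set. Introns held 47.2% of members, exons 5.70% and intergenic sequence 47.1%. The shares in shared peaks were 45.6%, 5.41% and 49%, and in the mirror set 60.6%, 9.26% and 30.1%. The median distance to the nearest protein-coding TSS was 13064.5 bp for members, 15099 bp for shared peaks and 10835 bp for the mirror set. Members more than 50 kb from every TSS (557 peaks) held the element in 5.75% of cases and those within 10 kb (1127 peaks) in 3.11%. GATA words stood in 16.5% and 10.7% of the same groups. Their median GC contents were 44.7% and 48.0%.

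The share of strong distal peaks found in replicate 1 only differed between chromosomes. It was highest on chromosome 10, 6.53% (257 of 3934), followed by chromosome 15 with 6.34% (208 of 3279) and chromosome 8 with 5.83% (239 of 4096). It was lowest on chromosome 19, 2.91% (44 of 1511), and chromosome 3, 2.94% (73 of 2482). Chromosomes 15 and 8 also had the highest shares of the mirror set, 5.89% and 4.94% of the strong distal peaks of replicate 2. Chromosome 10 did not stand out there, with 3.87%, and chromosome 16 had the lowest value, 1.54%.

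**Figure D4:**
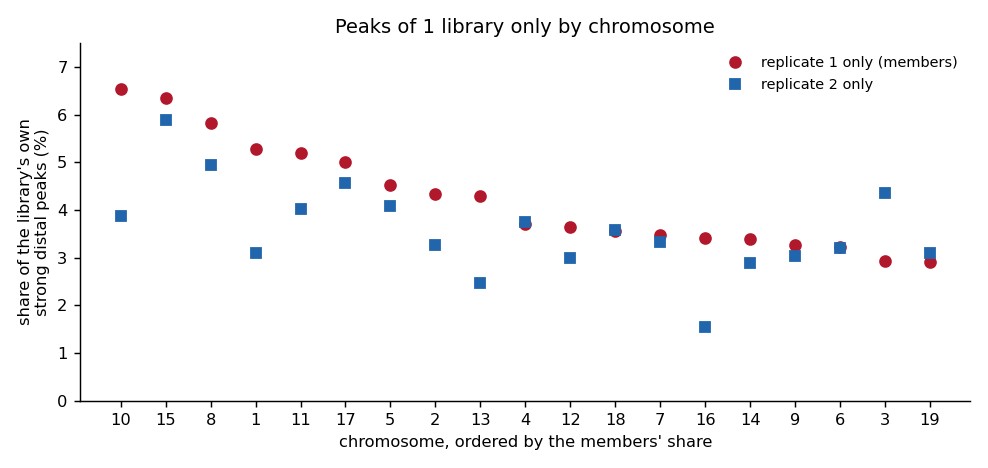
Strong distal peaks of 1 library only as a percentage of that library's own strong distal peaks (y axis) on each autosome (x axis, ordered by the members' share), for members (red circles) and strong distal peaks of replicate 2 only (blue squares). Members range from 2.91% to 6.53%, and chromosomes 15 and 8 are high in both series.

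Members were scattered, with local groups at a few genes. The median gap between neighbours was 197540 bp, and 695 members (27.3%) had another within 10 kb. Some were not separate sites, as 73 members overlapped another member and all members together covered 2507 separate stretches. Within 50 kb of the gene's annotated 5′ end, 2793 of 20780 protein-coding genes had a member, 13.4%, and 266 had at least 3, 1.28%. The highest number was 12, at the neighbours Hsp90ab1, Nfkbie, Slc35b2 and Tmem151b on chromosome 17. The members at chr17:45582856-45583005 and chr17:45582876-45583025, near Hsp90ab1, overlapped each other in a hotspot of 53 bp. Hsp90ab1 encodes the constitutive HSP90 chaperone, Nfkbie an inhibitor of NF-κB and Slc35b2 a sulfate donor transporter. The same group reached Slc29a1, a nucleoside transporter gene, with 10 members and Mymx, a gene of myoblast fusion, with 9. At Hsp90ab1 the members scored 49 to 68, with a median of 60.5, between 13.4 kb upstream and 48.1 kb downstream of the TSS, and none held the C/EBP-ATF element. Within 50 kb to each side of the Hsp90ab1 TSS, replicate 1 had 67 peaks of any score and replicate 2 had 41.

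Hand2, which encodes a basic helix-loop-helix factor of the heart, limb and sympathetic neurons, had 10 members and no peak of the mirror set. They scored 49 to 79, with a median of 63, and lay from 8.9 kb upstream to 14 kb downstream of the TSS. The strongest member, with 79, lay 4048 bp downstream (chr8:57324956-57325105). A replicate 2 peak that it did not overlap was centred 4.208 kb downstream. Beside the member 9.408 kb downstream, replicate 2 likewise had a peak at 9.228 kb. Several other members here had a replicate 2 peak centred within 500 bp. The group is therefore not a stretch without replicate 2 peaks. The whole window of 50 kb to each side of the TSS held 28 shared strong distal peaks. The total number of peaks in that window went the other way, as replicate 2 had more of any score (63) than replicate 1 (54). At 2 of the 10 a GATA word was found.

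Slc7a15, a gene of the amino acid transporter family SLC7, had 9 members of another kind. All 9 lay 19.4 to 36.6 kb upstream of the TSS and in hotspots at the q ceiling. Their GC content was 20% to 35.3%, their median masked share 94.7%, and all 31-base words were unique in 3 of them. Within 50 kb to each side of the Slc7a15 TSS, replicate 1 had 31 peaks of any score and replicate 2 had 8. Rps19bp1 and Cacna1i, a T-type calcium channel gene, had 9 members each on chromosome 15, in a group that reached Atf4.

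Atf4 itself had 8 members within 50 kb, 2 peaks of the mirror set and 14 shared strong distal peaks. The members scored 49 to 76, with a median of 54.5, and lay 1.8 to 25.7 kb downstream of the TSS. The 2 strongest, 76 and 69, lay in exons of the gene (chr15:80257376-80257525 and chr15:80256916-80257065). They shared a replicate 1 hotspot of 5348 bp with 2 members that lay between genes, 4.1 and 4.4 kb downstream of the TSS. The members 5 and 6.1 kb downstream of the Atf4 TSS had Rps19bp1 as the nearest gene. Those at 23.1 and 25.7 kb had Cacna1i. None of the 8 held the element.

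**Figure D5:**
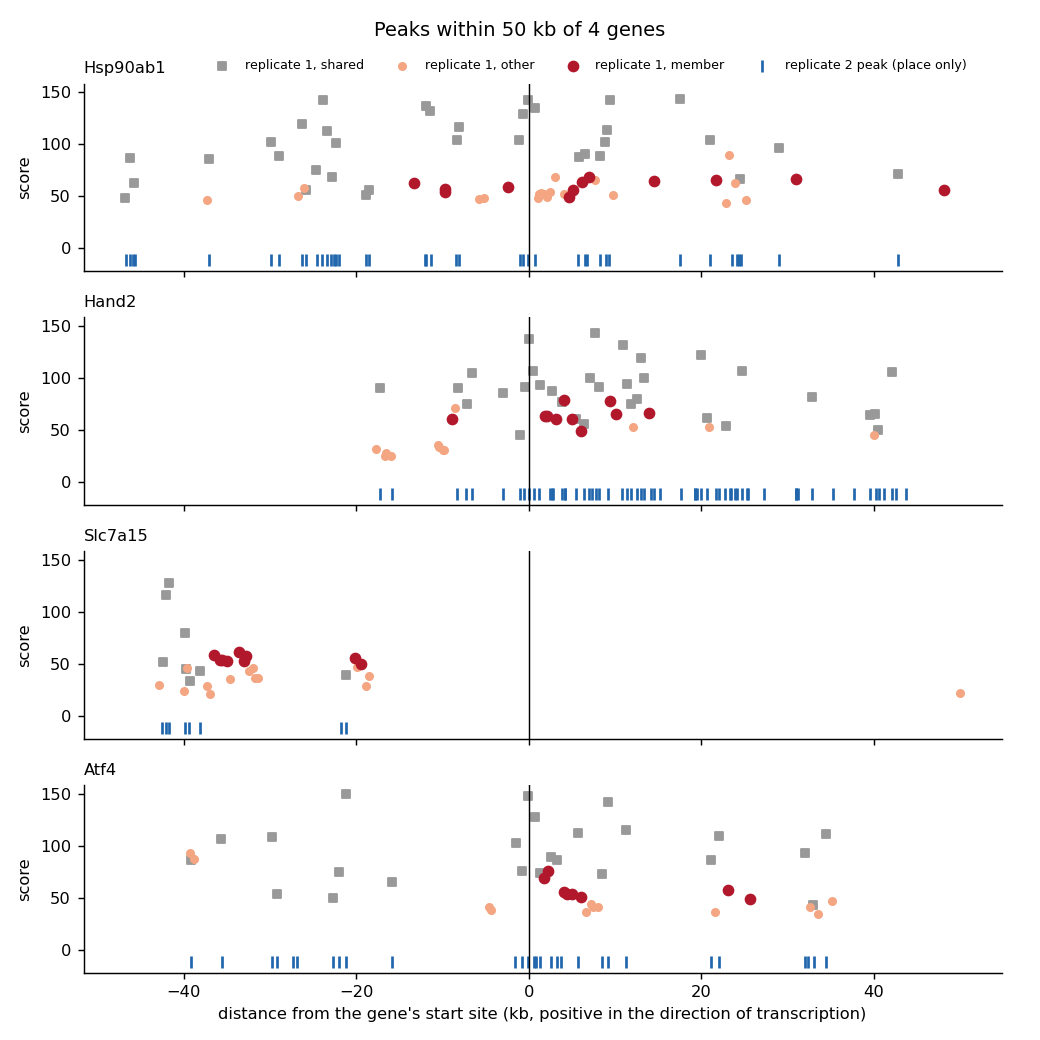
Peaks within 50 kb of the start sites of Hsp90ab1, Hand2, Slc7a15 and Atf4, by distance from the start site in kb (x axis, positive in the direction of transcription) and the authors' score in replicate 1 (y axis), for members (red), shared peaks (grey squares) and other replicate 1 peaks (orange). Here shared peaks are of any score and any distance from a TSS. Blue ticks give only the place of replicate 2 peaks, whose scores come from a separate list, and by the rule no member touches a tick.

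Gene lists written from textbook knowledge gave counts near the background in most cases. Of the 150 genes in 13 lists, 25 had a member within 50 kb, 16.7%, against 13.4% of all genes. The highest shares were 5 of 10 housekeeping genes (Actb, Gapdh, Eef1a1, Ppia and Ywhaz) and 5 of 13 pan-neuronal genes (Snap25, Tubb3, Vamp2, Nefm and Nefl). Nefm and Nefl are neighbours and share 1 member. Around those lists members made up 5% and 4.38% of the strong distal peaks, close to the 4.49% over all. The sympathoadrenal list had 4 of 15 genes with a member (Hand2, Insm1, Ddc and Chga), and members made up 9.38% of the 160 strong distal peaks around it. Of those 15 members, 10 were at Hand2. In the motor neuron list 1 of 15 genes had a member, Prph, the gene of peripherin, with 5 members, while 4 had a peak of the mirror set (26.7%, against 12.1% of all genes). The pluripotency and germ line list had none of 10, within 100 kb as well. The skeletal and cardiac muscle list had none of 12, but 6 within 100 kb (50%, against 22.4% of all genes). The counts of the remaining lists were 2 of 11 for neural progenitor, 1 of 11 for glia and neural crest, 1 of 12 for mesenchymal, 1 of 10 for endothelial, 2 of 14 for immune, 1 of 7 for erythroid and 2 of 10 for epithelial genes. List genes with at least 3 members were Hand2, Prph, Insm1, a zinc finger factor of neuroendocrine cells, and Tubb3, neuronal beta-tubulin. Many of these members lay at other genes. All 5 counted for Prph had Tuba1c as the nearest gene and lay 21.5 to 37.7 kb from the Prph TSS. The 3 counted for Tubb3 lay in introns of Tcf25 or Def8, 24.9 to 32.3 kb away. At Insm1, 2 of the 3 overlapped each other in an exon of Ralgapa2, 20.8 kb from the Insm1 TSS.

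A further list, of genes known to respond to the integrated stress response, was written after the element and the Atf4 group had been seen, and supports nothing on its own. Of its 39 genes on autosomes, 14 had a member, 35.9%, against 13.4% of all genes, and 9 had a peak of the mirror set, 23.1%, against 12.1%. Members made up 33 of the 356 strong distal peaks around these genes, 9.27%. Besides Atf4 the genes with at least 3 members were Vegfa, the vascular growth factor gene, with 6, Ddit3 with 5 and Atf3, a stress-induced ATF family gene, with 3. The 5 members at Ddit3 scored 49 to 56, and 1 of them lay in an exon of the gene (chr10:127293996-127294145). The others lay 22.7 to 34.8 kb from the Ddit3 TSS, with Kif5a, Dctn2 or Arhgap9 as the nearest gene. Those at Dctn2 overlapped each other. None of the members at these 4 genes held the exact element. At Asns, Chac1 and Sesn2, other classical targets, no member was found within 50 kb.

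The last feature described is the dense block. A block was called where 3 or more neighbouring 10 kb windows each had at least 5 replicate 1 peaks outside all replicate 2 peaks, with replicate 2 peaks numbering at most 25% of them. There were 36 such blocks in replicate 1 and 2 in replicate 2. The replicate 1 blocks held 1857 peaks, 1.11% of those on autosomes, with a median score of 11. In them lay 9 members, 0.354% (0.162% to 0.671%). Few block peaks could qualify: 26 reached the score threshold at any TSS distance, and these 9 were among them. Blocks were defined by peaks absent from replicate 2, as members were, so this count is a description. Of these, 6 lay in a block at chr4:147410001-147440000, 2 at chr8:19980001-20010000 and 1 at chr4:3160001-3190000, which overlaps Vmn1r2 and Vmn1r3, genes of pheromone receptors. The first 2 blocks hold no protein-coding gene.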

How the data were processed

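DNase-seq maps open chromatin by sequencing DNA next to DNase I cuts. Each library has a peak list and a hotspot list in mm10 coordinates, derived from that library's own filtered alignments without pooling, per the deposited readme. Neither an aligner nor a peak caller with its settings is named there or in the labels. The peak lists hold the authors' score, from 1 to a ceiling of 150, which was used only to rank and filter peaks within a list. The hotspot lists hold the authors' deposited −log10 q, from 1.3 to a ceiling of 100. The depth is unknown because no counts were used.

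Repeated entries (43 and 20) were dropped. An overlap of 1 bp counted. Genes came from GENCODE M21 and sequence from GRCm38. Motif searches covered 75 bp to each side of the centre and both strands, with flanks 1 kb away. Shared peaks were weighted to the members' score (10 bins), GC content (10 bins), or both (5 bins each). Uniqueness was the share of 31-base words that occur once in the genome. Python 3.11.15 with numpy 2.4.6, pandas 2.3.3, scipy 1.17.1 and matplotlib 3.10.9 was used, and the scripts were tested on simulated data.

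The members and lists were chosen with earlier results of these data known. Of 30 motifs, 8 were added after values were seen, among them the C/EBP-ATF element, its wider form and TGATGTCA, as was the integrated stress response list. Named members were those of highest score (10, at most 1 per nearest gene), the highest with each main motif, and those near the 10 genes with most members or near list genes with at least 3. The dense blocks with members and the members with the most and the fewest unique words were also named. Further members with the exact element, and single genes inside the lists, were chosen after their values were seen. None was taken from chromosome 18. Alternatives changed the score threshold, the TSS distance, the role of hotspots, the motif window, the weights, the block rule and the gene window.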

Additional observations from a re-analysis of the deposited data

Results flagged for a closer look

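Chromosome X lies outside the autosomes to which the members were limited. Its strong distal peaks of replicate 1 included 37 of 761 that overlapped no peak and no hotspot of replicate 2, 4.86% (3.45% to 6.64%). These peaks belong to none of the comparisons above. The share on autosomes, 4.49%, lies within that interval.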

How the results depend on the processing

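There were 297 alternatives to 60 values. The number of members was 2544, and 47 with the upper quartile of the score (78) as threshold, 4204 with the median over distal peaks (45), 1659 where no replicate 2 peak or hotspot was allowed within 500 bp, and 4282 with replicate 2 hotspots ignored. The C/EBP-ATF share of 4.21% was 3.43% with the threshold of 45 and 2.94% with hotspots ignored. In windows of 50 bp to each side the shares were 3.42% for C/EBP-ATF, 7.08% for AP-1, 8.53% for CAGCTG, 9.04% for GATA and 4.21% for TAATTA. Against flanks in place of shared peaks the ratio was 10.7 for C/EBP-ATF, and it turned to above 1 for AP-1 (2.10), CTCF (15.0), CAGCTG (1.77) and TGACTCA (2.5). With score weights the C/EBP-ATF ratio was 4.89. With GC weights the ratio was 0.960 for CAGCTG, 1.16 for GATA and 0.798 for TAATTA, and with score and GC weights 0.930, 1.15 and 0.824. The mean GC content of members was 4.75 percentage points below shared peaks, as the difference -4.75, and this was -3.55 with score weights and -3.59 in 500 bp windows. The CpG difference of -1.20 was -0.722 and -0.840. With score weights the masked difference of 6.44 points was 4.78 and the difference in fully unique peaks of -6.60 was -5.11. With genes of every type, introns held 52.9% of members, exons 7.70% and intergenic sequence 39.4%. The share in dense blocks was 0 with at least 8 peaks per window or with 20 kb windows, and 1.3% for chains of members. Within 100 kb 46 of 150 list genes had a member, against 25, and the share over all genes rose with the window too (30.7% of list genes against 22.4% of all). Leaving out the 9 members in dense blocks moved none of the values run. No paired analysis was possible because there is only 1 group, and neither library could be left out because the choice of members needs both. The unknown depth limits what absence from replicate 2 means: a peak below its calling threshold cannot be told apart from closed chromatin.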
